A study of Mus musculus with 24 samples.

Results

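The 8 libraries described here are those of macrophages that received oligomycin together with IL-4 and IL-13, out of 24 RNA sequencing libraries in 6 groups. They were chosen by their library names, 4 named Oligo and 4 named Oli_ISR, with 1 library of each kind from each of 4 mice, numbered 1, 2, 4 and 5. All were bone marrow-derived macrophages of wild-type C57BL/6J mice, female and 9 weeks old by the methods of the study, differentiated with M-CSF. Both groups were pretreated for 1 hour with oligomycin at 1 µM and then kept for 24 hours with oligomycin and with IL-4 and IL-13, each at 20 ng/ml. They differ in ISRIB at 1 µM, and the labels contradict each other on which group received it. By the sample titles and the treatment label, ISRIB was in the 4 Oligo libraries. By the library names, it was in the 4 Oli_ISR libraries. No measured value was used to choose between these readings, so each difference is given as Oligo against Oli_ISR. If the titles hold, a gene that was higher in Oligo was higher with ISRIB, and if the library names hold, it was lower with ISRIB. The 4 libraries with IL-4 and IL-13 but no inhibitor (IL-4/IL-13) are the controls for the oligomycin effect itself.

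Oligomycin blocks the proton channel of the mitochondrial ATP synthase. Mitochondrial trouble of this kind can engage the integrated stress response (ISR), in which kinases phosphorylate the initiation factor eIF2, the exchange factor eIF2B is inhibited, most translation slows, and the transcription factors ATF4 and CHOP are made. ISRIB binds eIF2B and holds it in its active form, which blunts the response downstream of eIF2 phosphorylation. IL-4 and IL-13 signal through STAT6 and drive the alternative activation of macrophages, with markers such as Retnla, Egr2 and Ear2.

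Reads on genes numbered 18640294 to 20368244 per library in Oligo and 18514993 to 26725278 in Oli_ISR, where the deepest library was that of mouse 5. The summed level of 16 macrophage genes was 11007 to 11793 CPM (counts scaled to a normalized library size of 1000000 reads) in Oligo and 16137 to 17938 in Oli_ISR, and each of the 16 had reads in these libraries. Markers of mast cells, B cells, T and NK cells and erythroid cells summed to at most 3.85 CPM in any of the 8 libraries, and Cma1, Fcer1a, Cd3e, Cd3g, Nkg7, Hbb-bs and Hbb-bt were at 0 in all 8. Collagens and other stromal markers varied with the mouse, from 6.50 to 55.9 CPM in Oligo and from 8.75 to 54.4 in Oli_ISR. The 11 neutrophil markers summed to 5.00 to 8.01 CPM in Oligo and 24.0 to 30.4 in Oli_ISR, and to 37.9 to 64.3 in the IL-4/IL-13 controls. In bulk RNA, fewer cells of a type and less RNA per cell cannot be told apart. Pairs of Oligo libraries had a chi-square per gene of 2.12 to 5.43, whereas within Oli_ISR the libraries of mice 1 and 4 stood apart from those of mice 2 and 5, with a chi-square per gene of 11.9 to 17.3 across these pairs against 3.04 to 5.59 within them. Interferon results, which depended on this split, are given by mouse, and counts without mice 1 and 4 are given for some other lists. Values listed for a group are in the order of mice 1, 2, 4 and 5.

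Genome-wide, the groups differed at many genes, mostly by little. Of 13679 genes tested, 2717 (19.9%) were higher in Oligo and 2917 (21.3%) were higher in Oli_ISR (edgeR quasi-likelihood test, adjusted p under 0.05), and the median size of these differences was 0.38 on the log2 scale. Differences of at least 2.5-fold were found for 156 genes (1.14%) in favour of Oligo and 202 (1.48%) in favour of Oli_ISR. Without the TMM scaling, that is with library size alone, all values moved toward Oligo by 0.117 on the log2 scale and the split became 4499 against 1903, or 70.3% of calls higher in Oligo in place of 48.2%. The 4 values of one group did not overlap with the 4 of the other at 5689 genes (41.6%). A further test asked for likeness rather than difference. At 4380 genes (32%) the difference lay within 0.32 on the log2 scale in either direction, called alike here, by a pair of one-sided tests, 770 of which also passed the test of a difference, and 4435 genes were neither shown to differ nor shown to be alike.

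Oligomycin itself, taken as the mean of both groups against IL-4/IL-13, raised 502 genes (3.67%) and lowered 863 (6.31%) by at least 2.5-fold. This mean effect gives both groups the same weight. It is independent of the difference between the groups only if both groups spread equally. The median SD of log2 CPM was 0.063 in Oligo and 0.089 in Oli_ISR, over 10455 genes with a mean of at least 50 counts, so independence holds only approximately. Among the 502 raised genes, 247 (49.2%) were higher in Oligo, 50 (10.0%) were higher in Oli_ISR, 17 (3.4%) were alike and 190 were neither. Among the 863 lowered genes, 24 (2.8%) were higher in Oligo, 377 (43.7%) were higher in Oli_ISR, 13 (1.5%) were alike and 450 were neither. Where the groups differed, the response was more often the larger one in Oligo, in both directions, against 19.9% and 21.3% over all genes. The median rise of the raised genes was 2.16 in Oligo and 1.77 in Oli_ISR on the log2 scale, and the median fall of the lowered genes was -2.38 and -1.83. Likeness depended on its margin. Within 1.5-fold, 105 raised genes (20.9%) and 105 lowered genes (12.2%) were alike, against 63.4% of all genes. Leaving out 1 mouse moved some of these counts. Raised genes higher in Oli_ISR numbered 20 without mouse 2, 76 without mouse 4 and 29 without mouse 5, raised genes alike 10 without mouse 1 and 11 without mouse 5, and lowered genes alike 3, 7, 8 and 3 without mouse 1, 2, 4 and 5. Outside of the responsive genes, 40.1% of 12314 genes differed.

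**Figure D1:**
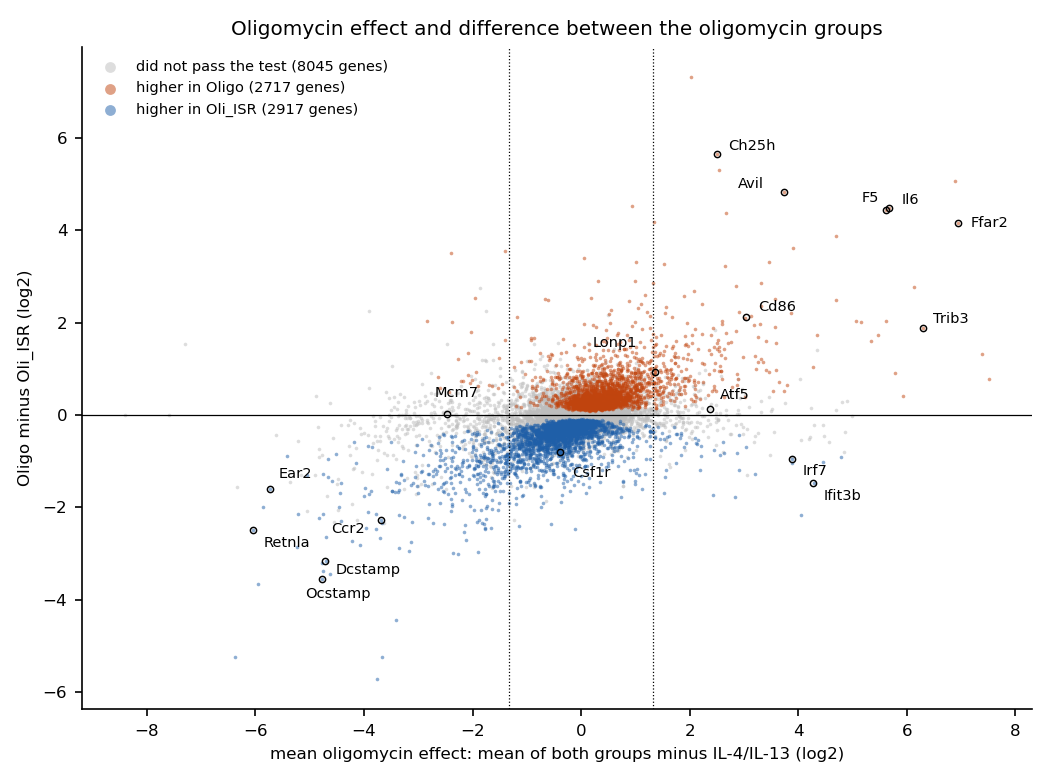
Each point is 1 of 13679 genes, with the mean oligomycin effect (log2) on the x axis and Oligo minus Oli_ISR (log2) on the y axis, coloured by whether the gene passed the test and in which direction. Dotted lines mark a mean effect of 2.5-fold. Red-orange points lie mostly to the right of 0 and blue points mostly to the left among the responsive genes, and Atf5 and Mcm7 lie near the line of no difference.

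The ISR transcription factors and effectors were, with the cytosolic tRNA synthetases, the list most often higher in Oligo (80% of the genes tested). Of 15 tested, 12 were higher in Oligo, with a median difference of 0.56 against 0 for all genes, 1 was higher in Oli_ISR (Atf3), 1 was alike (Atf5) and 1 was neither (Eif4ebp1). Of the 15, 10 were raised at least 2.5-fold by oligomycin. Trib3, a pseudokinase induced by ATF4 and CHOP, stood at 546, 531, 561 and 529 CPM in Oligo and at 149.8, 139.9, 148 and 148 in Oli_ISR, against 3.55 ± 0.502 (SD, n = 4) in IL-4/IL-13. The groups did not overlap, and the difference was 1.89 ± 0.07 (log2, SE; adjusted p = 1.1e-15), or 3.7-fold. Nupr1, a stress-induced regulator of transcription, was 61.1, 61.6, 62.7 and 58.9 CPM in Oligo and 26.5, 32.3, 26.1 and 31.7 in Oli_ISR, a difference of 1.06 ± 0.11 (adjusted p = 1.1e-08). The ATF4 transcript itself moved less. Atf4 was 706, 706, 699 and 706 CPM in Oligo and 480, 461, 466 and 505 in Oli_ISR, 1.47-fold apart. Atf5, another factor of the response, was raised to 393, 382, 398 and 372 CPM in Oligo and 381, 322, 382 and 336 in Oli_ISR from 71.6 ± 3.12, and the groups overlapped. Its difference was 0.12, with a 95% interval from -0.01 to 0.25 that lies inside this margin, although the call of likeness was lost without mouse 1 (difference 0.15).

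Genes of the eIF2 pathway, which include eIF2B, the target of ISRIB, differed by -0.45 to 0.67 (log2). Of the 16 genes of the eIF2 pathway tested, 8 were alike, 7 were higher in Oligo and 4 were higher in Oli_ISR, genes that were both called and alike being counted under each. All 4 genes higher in Oli_ISR code for eIF2 kinases. For Eif2ak3, the kinase PERK of the endoplasmic reticulum, Oligo had 21.9, 20.8, 24.1 and 23.9 CPM and Oli_ISR 30.4, 28.1, 34.5 and 30.8 (-0.45 ± 0.08, adjusted p = 6.8e-05). The other kinases were Eif2ak1 (-0.25), Eif2ak4 (-0.24) and Eif2ak2 (-0.35), and the call of Eif2ak2 was lost without mouse 1 (adjusted p = 0.051) and without mouse 5 (0.086). Among the eIF2B subunits, Eif2b3 differed most, with 13.1, 16.2, 15.8 and 14.1 CPM in Oligo against 9.26, 9.42, 8.99 and 9.6 (0.67 ± 0.11). Eif2b4 and Eif2b5 were alike and not called different, with differences of 0.12 and 0.13. Eif2b1 (0.14) was called higher in Oligo and was alike at the same time, and Eif2b2 was called higher in Oligo by 0.21. The call of a difference in Eif2b1 was lost whichever of the 4 mice was left out (adjusted p from 0.07 to 0.18), and that of Eif2b2 without mouse 1 (0.075) or mouse 4 (0.13). Of the eIF2 subunits, Eif2s2 was raised over IL-4/IL-13 by 1.28 in Oligo and 1.06 in Oli_ISR (log2). It was called higher in Oligo (0.22) and was alike at the same time. Eif2s1 was higher in Oligo by 0.28, whereas Eif2s3x (0.12) did not pass the test of a difference and was alike. Without mouse 1 or without mouse 4, 4 genes of this list were higher in Oligo. The number alike was 3 without mouse 1 and 4 without mouse 5, and 2 were higher in Oli_ISR without mouse 5.

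ATF4 targets of amino acid supply moved with the same sign, but not all of them. Of 20 cytosolic tRNA synthetases, which load amino acids onto tRNA, 16 were higher in Oligo, 1 was higher in Oli_ISR (Qars1, -0.20) and 8 were alike, again with some counted under both. Wars1 was 173, 179.7, 180 and 176 CPM in Oligo and 110.1, 103, 99.4 and 107 in Oli_ISR (0.76 ± 0.05, adjusted p = 1.8e-11). Eprs1, Aars1 and Gars1 were higher in Oligo by 0.67, 0.62 and 0.46 without overlap, whereas Cars1 was raised alike, to 114, 113, 121 and 114 CPM in Oligo and 113, 118, 118 and 122 in Oli_ISR from 33.2 ± 0.575. Of the 17 synthetases of mitochondria, 6 were higher in Oligo and 9 were alike. Among the amino acid transporters, 7 of 16 were higher in Oligo and 3 in Oli_ISR. Slc3a2, the heavy chain of several of them, was 1040, 1110, 1119 and 1132 CPM against 625, 696, 641 and 710 (0.72 ± 0.07). Slc1a4, which carries serine and alanine, was 2.0-fold higher in Oligo. The arginine transporter Slc7a2 went the other way, with 321, 343, 307 and 334 CPM in Oligo and 514, 569.5, 485 and 511 in Oli_ISR (-0.67 ± 0.07). In serine, one-carbon, asparagine and proline synthesis, 7 of 16 genes were higher in Oligo, 1 in Oli_ISR, 4 were alike and 4 were neither. Asns was among the last, with a mean oligomycin effect of 4.23 and a difference of 0.15 (log2). Pycr1, the last enzyme of proline synthesis, was low but 3.28-fold higher in Oligo (1.70 to 2.55 CPM against 0.426 to 0.867). Mthfd2, of the mitochondrial one-carbon cycle, was alike at 195, 199, 199.5 and 188 CPM against 179.9, 166, 173 and 179, raised from 21.5 ± 1.41, and this call was lost without mouse 1 or mouse 5. Phgdh, the first enzyme of serine synthesis, was higher in Oligo by 0.53, but 53.1% of its 50-base windows also occur in other genes, so its reads may be shared. Aldh1l1, the cytosolic enzyme that disposes of formyl-tetrahydrofolate, was 2.76-fold lower in Oligo.

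The promoter windows of these genes were read from RefSeq (GRCm38.p6, 250 bases before to 50 bases after the start of a gene) for 10027 of the tested genes. The composite site that ATF4 and C/EBP factors bind, TGATGNAAN on either strand, was present in 2.85% of these genes and in 3.95% of all 32851 windows. It was present in 35.7% of 14 ISR genes, in 38.5% of 13 cytosolic tRNA synthetases and in 10.0% of the 349 raised genes with a window. Its share was 11.6% of 173 raised genes that were higher in Oligo, 11.8% of 34 that were higher in Oli_ISR and 10.5% of 76 that were alike within 1.5-fold. Among genes at least 2.5-fold apart, raised or not, it was 6.67% of 105 higher in Oligo and 2.27% of 132 higher in Oli_ISR. A match is a description of letters, not of binding. The windows of 3 ISR targets and of Avil, among the largest differences, are shown with the composite in capitals. They lie at chr2:152344011-152344310 (minus strand), chr8:111033592-111033891, chr6:55037751-55038050 and chr10:127000459-127000758 (plus strand), and the match begins 14 bases after the start in Trib3, 31 bases before it in Gars1 and 17 bases before it in Avil.
Trib3: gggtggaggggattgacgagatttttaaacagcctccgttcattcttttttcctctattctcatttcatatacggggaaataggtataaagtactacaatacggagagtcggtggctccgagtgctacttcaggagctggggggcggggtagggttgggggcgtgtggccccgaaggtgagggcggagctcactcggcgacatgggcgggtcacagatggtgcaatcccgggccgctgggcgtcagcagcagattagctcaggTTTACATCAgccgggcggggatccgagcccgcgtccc
Aars1: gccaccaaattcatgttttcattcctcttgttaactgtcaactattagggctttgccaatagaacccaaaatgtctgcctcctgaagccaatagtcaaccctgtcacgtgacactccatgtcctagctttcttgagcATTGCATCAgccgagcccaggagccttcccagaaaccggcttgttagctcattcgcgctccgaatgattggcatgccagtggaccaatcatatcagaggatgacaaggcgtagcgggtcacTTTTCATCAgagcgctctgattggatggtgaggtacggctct
Gars1: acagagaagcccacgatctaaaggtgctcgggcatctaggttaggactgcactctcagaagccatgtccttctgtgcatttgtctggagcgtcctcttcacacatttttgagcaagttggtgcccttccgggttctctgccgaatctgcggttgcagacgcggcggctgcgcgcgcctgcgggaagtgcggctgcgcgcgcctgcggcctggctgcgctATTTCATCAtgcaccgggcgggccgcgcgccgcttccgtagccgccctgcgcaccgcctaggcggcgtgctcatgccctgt
Avil: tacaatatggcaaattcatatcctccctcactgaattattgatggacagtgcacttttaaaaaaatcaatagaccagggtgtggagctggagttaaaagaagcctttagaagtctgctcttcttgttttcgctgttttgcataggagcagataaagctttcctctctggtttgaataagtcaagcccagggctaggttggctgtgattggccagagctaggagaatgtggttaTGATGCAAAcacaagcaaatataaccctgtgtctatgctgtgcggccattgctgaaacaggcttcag

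Among genes with a mean of at least 50 counts, the largest rises in Oligo over Oli_ISR included the following. Ffar2, a receptor for short-chain fatty acids, was 57.4, 57.0, 70.9 and 55.9 CPM in Oligo and 3.63, 3.91, 3.00 and 2.98 in Oli_ISR (4.16 ± 0.13, 17.9-fold, adjusted p = 9e-18). F5, coagulation factor V, was 79.3, 83.8, 108 and 72.2 CPM against 3.58, 4.08, 4.58 and 3.76. These genes were near 0 in the controls, at 0.11 ± 0.0447 and 0.370 ± 0.201 CPM. Il6, the cytokine, was 18.3, 16.5, 20.4 and 16.8 CPM against 0.921, 0.882, 0.735 and 0.697 (4.48 ± 0.21, 22.3-fold). Avil, an actin-binding protein of the villin family, was 6.72, 7.67, 8.28 and 6.45 CPM against 0.379, 0.11, 0.226 and 0.271 (4.83 ± 0.33). Sh2d6, an SH2 domain adaptor, and Tox2, a transcription factor, were 6.87-fold and 5.69-fold higher in Oligo. Cav1 (caveolin), Ednrb (an endothelin receptor), Prkg1 (a cGMP-dependent kinase) and Matn2 (a matrix protein) were 4.68-fold to 9.87-fold higher. Slc43a3, a transporter, and Sema3c, a semaphorin, differed by 2.48 and 2.3 on the log2 scale although Oli_ISR stood at or below the controls, with 5.60 to 7.82 CPM against 9.05 ± 0.877 for Slc43a3. Ch25h, which makes 25-hydroxycholesterol, was 78.3, 73.9, 101 and 66.7 CPM in Oligo and 1.73, 1.54, 1.75 and 1.39 in Oli_ISR, where it did not exceed the 1.99 ± 0.366 of the controls. Ch25h shares 50.3% of its exon bases with another gene, and whether strand was used in counting is not given in the sources used here, so its reads cannot be assigned with certainty.

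**Figure D2:**
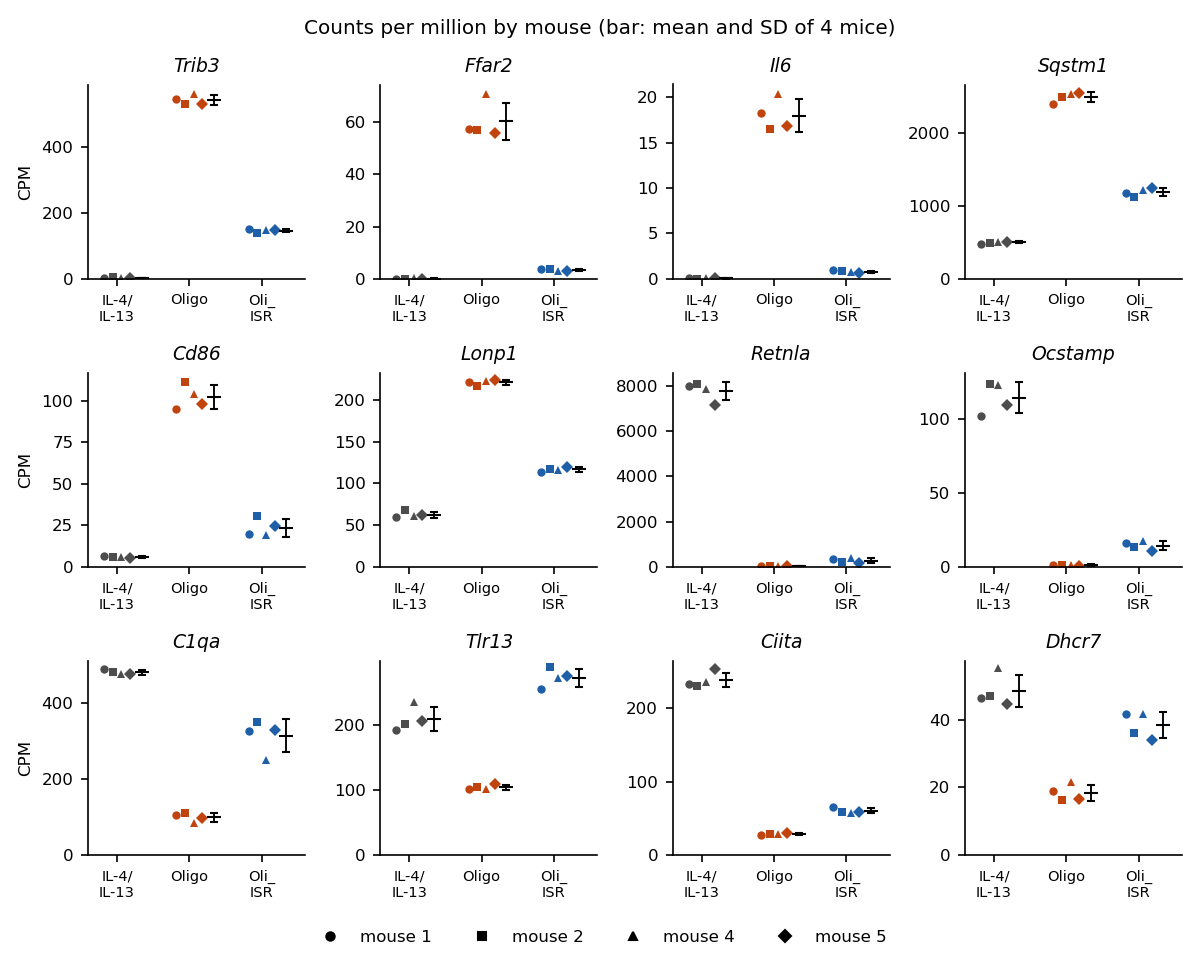
CPM of 12 genes in each mouse for IL-4/IL-13 (grey), Oligo (red-orange) and Oli_ISR (blue), each panel with its own linear axis from 0 and with the mean and SD of the 4 mice as a bar. The 12 genes were picked with their values known. The Oligo and Oli_ISR points do not overlap in any of these panels, as was so for 41.6% of all genes tested. Trib3 was at 529 to 561 CPM in Oligo against 139.9 to 149.8 in Oli_ISR, and C1qa at 85.6 to 112 against 251 to 350.

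Inflammatory genes did not move as a block. Of 22 tested, 8 were higher in Oligo, 2 were higher in Oli_ISR (Il10, -1.45, and Ccl5, -1.12), and 11 were neither. Ccl7, a monocyte chemokine, was 17.7, 20.4, 19.1 and 14.5 CPM in Oligo and 3.63, 7.49, 2.88 and 5.69 in Oli_ISR (1.85 ± 0.19). Ptgs2, the inducible cyclooxygenase, was 2.34-fold higher in Oligo, at 4.71 to 5.64 CPM against 1.92 to 2.65. Its constitutive counterpart Ptgs1 was 2.01-fold lower, at 42.7 to 48.5 CPM against 89.4 to 95. Tnf (0.42), Il1b (0.37), Cxcl10 (0.07) and Nos2 (0.03) did not pass the test. Among 9 PD-1 ligands and costimulatory molecules, 4 were higher in Oligo and 2 in Oli_ISR. Cd86, which costimulates T cells, was 94.8, 112, 104 and 98.0 CPM against 20.1, 30.7, 19.0 and 24.7 (2.11 ± 0.14, adjusted p = 1e-11), raised from 6.02 ± 0.591. The collagenase Mmp13 was 3.36-fold higher in Oligo.

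Several genes of mitochondrial protein quality control were higher in Oligo, as were the autophagy receptors Sqstm1 and Optn, though not the autophagy list as a whole. Of 13 mitochondrial chaperones and proteases, 6 were higher in Oligo, none was higher in Oli_ISR, and the other 7 were alike. Lonp1, the matrix protease, was 221, 216, 223 and 224 CPM in Oligo and 114, 118, 116 and 119 in Oli_ISR, against 62.6 ± 3.52 (0.92 ± 0.04, adjusted p = 4.9e-14). Hspa9, the mitochondrial HSP70, was 1003, 1024, 1043 and 1022 CPM against 627, 549, 614 and 565 (0.80 ± 0.05). Dnaja3, its partner, differed by 0.61 and Hspd1 by 0.68, the latter with 40.3% of its 50-base windows in other genes. Sqstm1, the receptor p62 that links ubiquitin to autophagosomes, was 2390, 2480, 2523 and 2547 CPM in Oligo and 1172, 1124, 1209 and 1245 in Oli_ISR, against 498 ± 13.6. Optn, another receptor, was 1.75-fold higher in Oligo. Of the 25 autophagy genes tested, 13 were alike, 9 (36%) were higher in Oli_ISR and 4 (16%) in Oligo, against 21.3% and 19.9% of all genes. Those higher in Oli_ISR numbered 3 without mouse 1 and 5 without mouse 4 or mouse 5. The median of the list, -0.05, changed sign with library size alone.

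Of 28 ribosome biogenesis genes, 20 were higher in Oligo and 2 in Oli_ISR (Polr1d and Pes1), with a median of 0.29. Nop58, a core protein of box C/D small nucleolar RNPs, was 51.8, 49.2, 51.1 and 53.7 CPM in Oligo and 33.4, 33.7, 30.9 and 32.2 in Oli_ISR (0.66 ± 0.05), and here Oli_ISR stood at the 33.2 ± 2.52 of IL-4/IL-13. Of 15 host transcripts of small nucleolar RNAs, 10 were higher in Oligo and none in Oli_ISR, with a median of 0.61. Gas5 was 104, 109.6, 114 and 105 CPM against 53.7, 56.2, 56.7 and 54.5 (0.97 ± 0.09), and Snhg12 was 2.17-fold higher. Snhg1 was 2.16-fold higher with 39% of its exon bases shared with other genes. In the main analysis, 44 of 83 cytosolic ribosomal proteins were alike, 6 were higher in Oligo and 6 in Oli_ISR. Rplp0 was 1248, 1192, 1223 and 1177 CPM against 1224, 1109, 1158 and 1107. The clearest exception was Rpl37a, 1.68-fold lower in Oligo. Of 31 translation factors, 19 were alike, among them Eef1a1 (-0.01), although near-identical copies share its reads, and 11 were higher in Oligo, led by Eif5 (0.60). The counts for ribosomal proteins depended on the mouse and the fit. Alike were 13 without mouse 1, 21 without mouse 4, 18 without mouse 5 and 29 with upper-quartile scaling. Higher in Oligo were 3 without mouse 1, 10 without mouse 2, 3 without mouse 4, 28 with the mouse as a block in the compared groups and 33 with library size alone, where 18 translation factors were also higher in Oligo.

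Some hypoxia and redox genes joined this side. Of 16 HIF factors and hypoxia targets, 8 were higher in Oligo and 2 in Oli_ISR. Ero1a, which oxidizes disulfide isomerases, was 173, 168, 197 and 164 CPM in Oligo and 77.1, 69.5, 84.7 and 62.3 in Oli_ISR (1.26 ± 0.09), and Ndrg1 was 1.96-fold higher. The prolyl hydroxylase P4ha1 was alike (0.12). Of 17 antioxidant targets of NRF2, 6 were higher in Oligo and 5 in Oli_ISR, the latter falling to 1 without mouse 1 and 3 without mouse 5, and the median of the list changed sign with the scaling. Gclm, a subunit of the enzyme that starts glutathione synthesis, was 326, 324, 324 and 339.5 CPM against 200.1, 142, 205 and 165, whereas Nfe2l2, which codes for NRF2, was 1.51-fold lower in Oligo. The copper-binding ferroxidase Cp was 3.54-fold higher in Oligo, while the transferrin receptor Tfrc was lower, at 271, 263, 302 and 234 CPM against 678, 539.6, 756 and 452.

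**Figure D3:**
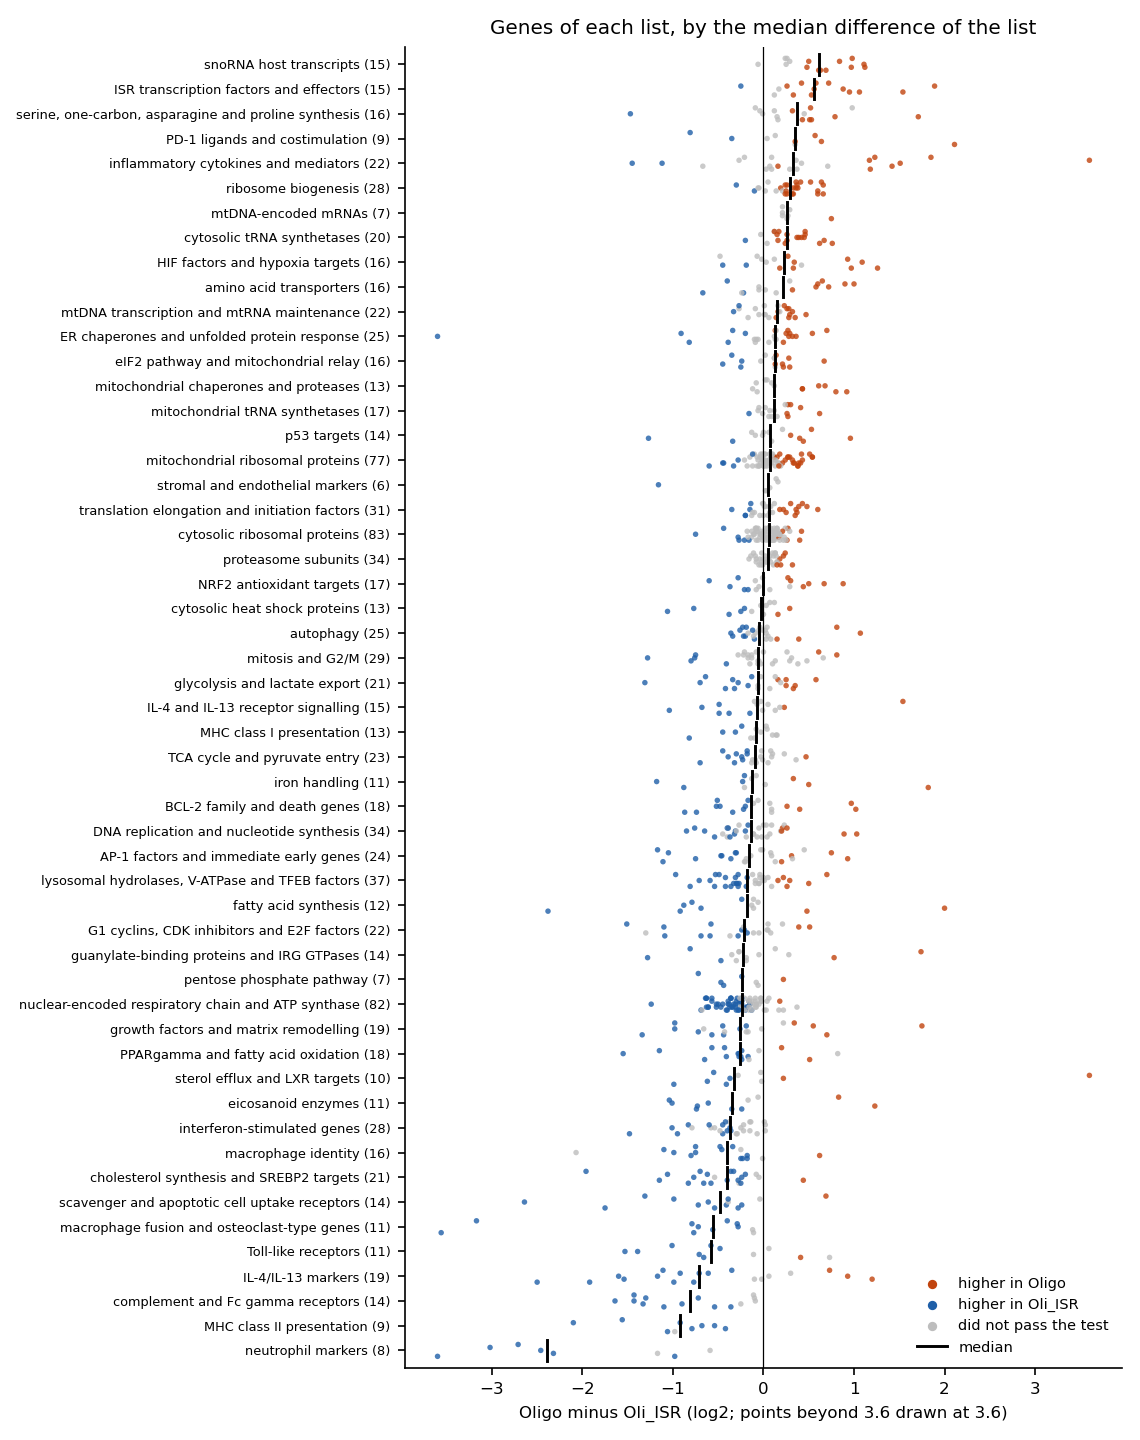
Each point is a gene of a fixed list, placed by Oligo minus Oli_ISR (log2) on the x axis, with lists ordered by their median (black bar) and the number of genes tested in parentheses. Points past 3.6 in either direction are drawn at the edge. ISR factors (median 0.56) and snoRNA host transcripts (0.61) lie at the top, and IL-4/IL-13 markers (-0.71), complement and Fc gamma receptors (-0.81), MHC class II (-0.92) and neutrophil markers (-2.39) at the bottom.

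On the other side, markers of alternative activation were more often higher in Oli_ISR. Of 19 IL-4/IL-13 markers, 12 were higher in Oli_ISR, 3 were higher in Oligo (Clec10a, Klf4 and Mgl2) and 2 were alike, with a median of -0.71, and 9 were lowered at least 2.5-fold by oligomycin. Egr2, a transcription factor of alternative activation, was 107, 107, 101 and 105 CPM in Oligo and 237, 234, 235 and 241 in Oli_ISR, against 409.9 ± 13.2 in IL-4/IL-13 (-1.17 ± 0.06, adjusted p = 4e-13). Ear2, a ribonuclease of the eosinophil family, was nearly lost in both, from 407 ± 19.8 CPM to 3.79, 4.37, 5.08 and 4.4 in Oligo and 13.8, 11.2, 18.1 and 10.6 in Oli_ISR, with 35.6% of its 50-base windows in other genes. By contrast, Mrc1, the mannose receptor, and Tgm2, a transglutaminase, were alike, with differences of 0.06 and -0.02. Mrc1 lost this call without mouse 1 or mouse 2. Of 15 genes of IL-4 and IL-13 receptor signalling, 6 were higher in Oli_ISR, 2 were higher in Oligo (Il4ra and Socs3), and 7 were alike, among them Jak1, Jak3, Il13ra1 and Stat3. The median of these 15, -0.07, became 0.05 with library size alone. Stat6 differed by -0.15, a call lost without mouse 5 (adjusted p = 0.062), and was at the same time alike. The feedback inhibitors parted, with Cish 2.05-fold lower in Oligo (12.5 to 14.8 CPM against 23.7 to 31.2) and Socs3 2.91-fold higher (9.36 to 10.8 against 2.76 to 4.49). The STAT6-type site, TTC and GAA 4 bases apart, was found in 26.7% of 15 marker promoters and in 16.7% of the 132 promoters of genes at least 2.5-fold higher in Oli_ISR, against 6.73% of all. It was also found in 15.2% of 79 lowered genes that were alike within 1.5-fold, in 10.4% of 268 that were lowered and lower in Oligo, and in 7.33% of all 2264 genes higher in Oli_ISR.

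With the same minimum of counts, the largest falls in Oligo included Ocstamp and Dcstamp. Both code for membrane proteins needed for the fusion of osteoclasts and giant cells. Ocstamp was 1.33, 1.65, 1.41 and 0.450 CPM in Oligo and 16.1, 13.3, 17.5 and 11.1 in Oli_ISR, against 115 ± 10.7 (-3.56 ± 0.29, 11.8-fold). Dcstamp was 1.70, 2.07, 1.73 and 1.85 CPM against 17.1, 17.5, 19.2 and 13.2, with 36.0% of its exon bases shared with another gene. Of 11 genes of fusion and osteoclast type, 9 were higher in Oli_ISR and none in Oligo. Ccr2, the receptor for CCL2, was 2.51, 4.09, 3.40 and 4.00 CPM against 14.1, 19.8, 14.7 and 19.0, lowered from 99.5 ± 8.57. Penk, the precursor of enkephalins, was 4.88, 4.75, 3.25 and 4.10 CPM in Oligo and 23.6, 23, 23.1 and 20.2 in Oli_ISR, where it matched the 21.7 ± 1.2 of the controls. Lrrc32, which docks latent TGF-β, was 4.81-fold lower in Oligo. The neutrophil granule genes Ngp (8.09-fold), Ltf (6.53-fold) and S100a9 (5.51-fold) were among the largest falls, and Camp, another of them, had no read in any Oligo library. The 8 neutrophil markers tested were all lowered by oligomycin and 6 of them were higher in Oli_ISR. The summed neutrophil level moved with the genes that fell further in Oligo, and its part in those results was not tested.

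Receptors and effectors of macrophage function were lower in Oligo across several lists. Of 14 complement and Fc gamma receptor genes, 10 were higher in Oli_ISR, none in Oligo, with a median of -0.81. C1qa, a chain of the first complement component, was 107, 112, 85.6 and 97.9 CPM in Oligo and 327, 350, 251 and 330.1 in Oli_ISR (-1.64 ± 0.12, adjusted p = 6.7e-11), against 482 ± 7.24. C1qb was 2.7-fold lower in Oligo. C5ar1, a receptor for the complement fragment C5a, fell below its control level of 114 ± 10.0 in Oligo (51.9 to 63.7 CPM) and rose above it in Oli_ISR (132 to 163), with effects of -0.95 and 0.38. Fcgr4, an activating Fc receptor, stayed at 26.2, 26.4, 23.5 and 24.5 CPM in Oligo, near the 24.3 ± 1.8 of the controls, and was 57.2, 85.1, 47.7 and 80.2 in Oli_ISR. The inhibitory receptor Fcgr2b was alike (-0.11). Of 11 Toll-like receptors, 7 were higher in Oli_ISR and 1 in Oligo (Tlr2). Tlr13, a sensor of bacterial ribosomal RNA, was 101, 105, 101 and 109 CPM against 255, 288, 271 and 274, and Tlr9, a sensor of DNA, was 7.72, 9.55, 7.28 and 9.89 against 22.3, 30.9, 17.4 and 28.5. Tlr4 was alike, at 203 to 224 CPM against 193 to 213. Of 14 receptors for scavenging and for uptake of dying cells, 11 were higher in Oli_ISR and 1 in Oligo (Cd5l). Axl, a receptor for dying cells, was 39.2, 43.5, 37.7 and 48.1 CPM in Oligo and 121, 161, 108 and 175 in Oli_ISR, and its relative Mertk was 1.99-fold lower in Oligo.

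Genes of macrophage identity followed the same direction, 12 of 16 being higher in Oli_ISR and 1 in Oligo (Cd14). Csf1r, the receptor for M-CSF, was 2093, 2203, 2189 and 2162 CPM in Oligo and 3775, 3788, 3874 and 3617 in Oli_ISR (-0.80 ± 0.07, adjusted p = 4.8e-10), and the controls stood at 3732 ± 358. Lyz2, lysozyme, was 3767 to 4310 CPM against 5670 to 7738. Spi1, which codes for the transcription factor PU.1, differed by -0.18, a call lost with upper-quartile scaling (adjusted p = 0.057) and without mouse 1 (0.057) or mouse 5 (0.15). MHC class II was low in both and lower in Oligo. All 9 genes tested were lowered at least 2.5-fold by oligomycin, and 8 were higher in Oli_ISR. Ciita, the master regulator of these genes, was 27.9, 29.2, 28.4 and 30.1 CPM in Oligo and 65.3, 59.1, 57.9 and 59.2 in Oli_ISR, from 238 ± 10.1 (-1.06 ± 0.07). H2-DMa, which helps load peptides, was 22.2 to 27.2 CPM against 71.4 to 81.2. MHC class I differed less, with 6 of 13 genes alike, including H2-K1 (-0.08) and H2-D1 (-0.14), which share sequence with their paralogs, and B2m 1.24-fold lower in Oligo. The class I median, -0.08, became 0.03 with library size alone.

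Lipid genes were mostly higher in Oli_ISR. Of 21 genes of cholesterol synthesis and its regulation by SREBP2, 16 were higher in Oli_ISR and 1 in Oligo (Sc5d), with a median of -0.40. Dhcr7, a reductase of the last steps, was 19, 16.3, 21.6 and 16.6 CPM in Oligo and 41.6, 36.1, 41.6 and 34.1 in Oli_ISR, from 48.4 ± 4.77 (-1.06 ± 0.11, 2.08-fold). Of 18 genes of PPARγ and fatty acid oxidation, 13 were higher in Oli_ISR. Pparg was 97.6, 91.4, 91.1 and 93.4 CPM against 150.2, 148, 146 and 144, where Oli_ISR matched the 144 ± 6.21 of the controls, and its target Angptl4 was 2.92-fold lower in Oligo. Plin2 (0.51) and Fabp5 (0.20) of this list were higher in Oligo. Of 12 genes of fatty acid synthesis, 6 were higher in Oli_ISR and 2 in Oligo. Of the latter, Elovl6, which elongates fatty acids, was 3.99-fold higher, at 9.69 to 12.9 CPM against 2.28 to 3.42, and the desaturase Fads2 was 5.21-fold lower in Oligo. In the lysosome list, 19 of 37 genes were higher in Oli_ISR and 6 in Oligo. The cholesterol exporters of the lysosome parted, Npc1 being 1.62-fold higher in Oligo (920.2 to 1046 CPM against 553 to 665) and Npc2 1.63-fold lower. The protease Ctsh was 1.96-fold lower in Oligo, and Ctsd, with 31.3% of its 50-base windows in other genes, was alike.

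Nuclear genes of the respiratory chain and ATP synthase, the target of oligomycin, were slightly but widely higher in Oli_ISR. Of 82 tested, 45 were higher in Oli_ISR, 1 in Oligo (Ndufab1), and 23 were alike, with a median of -0.24. The count fell to 25 without mouse 1, 29 without mouse 5 and 26 with library size alone. Uqcrh, a subunit of complex III, was 28.8, 26.4, 29.7 and 26.3 CPM in Oligo and 63.5, 64.3, 69.9 and 64.5 in Oli_ISR, from 124 ± 6.12 (-1.24 ± 0.12). Sdhd, of complex II, was 1.55-fold lower in Oligo and Atp5mj, of the ATP synthase, 1.62-fold lower, whereas the catalytic subunit Atp5f1b differed by only -0.19. Of 13 mitochondrial mRNAs, 6 (mt-Atp6, mt-Atp8, mt-Co2, mt-Co3, mt-Nd3 and mt-Nd4l) had no read in any of the 8 libraries. The reason was not tested, so their levels cannot be read from these counts. The 7 that could be tested were all lowered at least 2.5-fold by oligomycin, with differences of 0.21 to 0.75 between the groups. Of these, mt-Nd6 passed the test, at 2.84 to 3.55 CPM against 1.65 to 2.28, and not without mouse 2 (adjusted p = 0.057). With the mouse as a block in the compared groups, all 7 were higher in Oligo, as were 6 without mice 1 and 4. In contrast, 45 of 77 mitochondrial ribosomal proteins were alike, and 21 were higher in Oligo, led by Mrps28 (0.54). Of 23 genes of the TCA cycle, 12 were alike, 1 was higher in Oligo and 9 were higher in Oli_ISR, led by Pdk2 (-0.70), with 33.9% of its exon bases shared with other genes. With library size alone, 5 were higher in Oligo, and the median of the list went from -0.09 to 0.03. In the pentose phosphate pathway, 4 of 7 were higher in Oli_ISR, including G6pdx, its first enzyme, at 181, 186, 178 and 190.5 CPM against 301, 306, 291 and 309. Glycolysis was mixed, with 9 of 21 higher in Oli_ISR (Aldoc, 2.48-fold), 6 higher in Oligo (Slc16a1, 1.49-fold) and 8 alike, among them Ldha. Its median, -0.06, became 0.06 with library size alone. The chaperones and unfolded protein response genes of the endoplasmic reticulum were also split. Of 25 tested, 10 (40%) were higher in Oligo, 6 (24%) were higher in Oli_ISR, 9 were alike and 1 was neither. A gene both called and alike was counted under each, and the median of the list was 0.13. Calr was 701, 723, 765 and 721 CPM in Oligo and 1260, 1347, 1219 and 1306 in Oli_ISR, Sdf2l1 was 1.88-fold lower in Oligo, the stress sensor Ern1 was 1.62-fold higher, and Canx and Hsp90b1 were alike.

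Interferon-stimulated genes differed between the groups by amounts that depended on the mouse. Oligomycin raised 25 of 28 at least 2.5-fold, and 11 were higher in Oli_ISR, none in Oligo and 1 alike (Irf9). The summed level of the 28 was 4674, 4871, 3625 and 4976 CPM in Oligo and 5251, 8126, 3831 and 7978 in Oli_ISR, against 970.0 to 1125 in IL-4/IL-13. All 28 were higher in Oli_ISR in mice 2 and 5, whereas 19 were in mouse 1 and 14 in mouse 4. Without mice 2 and 5, 1 gene of the list was called, and without mice 1 and 4, 21 were. The count was 1 without mouse 2, 18 without mouse 4, 5 without mouse 5 and 18 with the mouse as a block in the compared groups. Irf7, the factor that amplifies interferon production, was 354, 358, 269.8 and 365 CPM in Oligo and 483, 886, 318 and 919.6 in Oli_ISR, and its difference of -0.95 (adjusted p = 0.0039) became -0.80 without mouse 2 (adjusted p = 0.056). Oas3, a sensor of double-stranded RNA, was 419, 463, 331 and 468 CPM against 631, 947, 468 and 936 (-0.83 ± 0.18, adjusted p = 0.00067), and it kept its call whichever mouse was left out. Ifit3b was 2.42, 3.34, 1.78 and 4.20 CPM against 4.71, 11.1, 2.83 and 13.3, a call lost without mouse 2 (adjusted p = 0.072), and 48.0% of its 50-base windows occur in other genes. Ms4a4c, one of the largest falls, was 9.19, 11.5, 6.18 and 11.2 CPM in Oligo and 18.7, 68.8, 8.54 and 72.6 in Oli_ISR. Of 14 guanylate-binding proteins and IRG GTPases, 3 (21.4%) were higher in Oli_ISR, 2 (14.3%) were higher in Oligo and 9 were neither. Over all genes the shares were 21.3% and 19.9%, so the list stood near them. Those higher in Oli_ISR numbered none without mouse 2, 5 without mouse 4 and 1 without mouse 5, and those higher in Oligo 1 without mouse 1. Of the 14, 12 were higher in Oli_ISR in mice 2 and 5, against 7 in mouse 1 and 4 in mouse 4. Gbp8 was 3.33-fold higher in Oligo. The part of the split between mice in these values was not tested. The interferon response element GAAANNGAA was present in 52.9% of 34 raised genes that were higher in Oli_ISR, in 11% of 173 that were higher in Oligo, in 63.2% of 19 promoters of the list and in 9.07% of all. The windows of Oas3 (chr5:120777610-120777909, minus strand) and Ifit3b (chr19:34607707-34608006, plus strand), with matches on either strand in capitals, show it.
Oas3: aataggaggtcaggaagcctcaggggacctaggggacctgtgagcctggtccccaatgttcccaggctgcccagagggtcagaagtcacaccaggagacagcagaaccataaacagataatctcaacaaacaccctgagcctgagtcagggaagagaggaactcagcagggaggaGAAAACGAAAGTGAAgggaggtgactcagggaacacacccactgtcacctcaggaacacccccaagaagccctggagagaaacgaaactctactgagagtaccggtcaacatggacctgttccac
Ifit3b: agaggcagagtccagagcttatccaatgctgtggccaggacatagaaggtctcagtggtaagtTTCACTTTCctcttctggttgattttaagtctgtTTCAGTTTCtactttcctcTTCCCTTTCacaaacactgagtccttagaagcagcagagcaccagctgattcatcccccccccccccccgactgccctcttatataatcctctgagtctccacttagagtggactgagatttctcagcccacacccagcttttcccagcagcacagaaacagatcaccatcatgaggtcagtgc

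**Figure D4:**
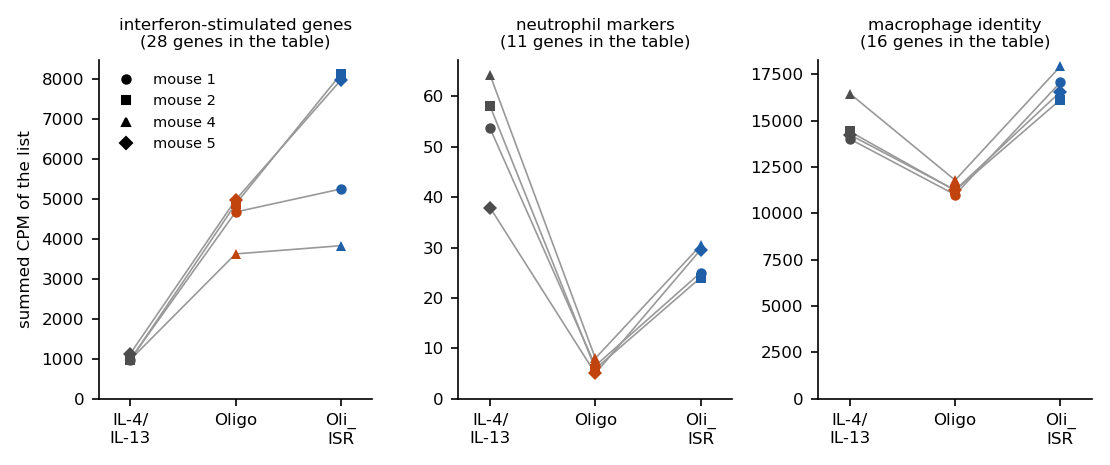
Summed CPM of 3 lists on the y axis, by group on the x axis, with 1 line per mouse. Interferon-stimulated genes separate mice 2 and 5 (7978 and 8126 CPM) from mice 1 and 4 (5251 and 3831) in Oli_ISR, neutrophil markers are lowest in Oligo (5.00 to 8.01) in all 4 mice, and macrophage genes are lower in Oligo than in Oli_ISR in all 4.

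Mitotic genes had the lowest median oligomycin effect of all lists, and few of them differed between the groups. Of 29 genes of mitosis and G2/M, 27 were lowered at least 2.5-fold, with a median mean effect of -2.77, whereas their median difference between the groups was -0.06 and changed sign with library size alone. Most of them (21) were neither called nor shown to be alike. Cdk1, the kinase of mitosis, was 7.29, 6.58, 6.76 and 7.45 CPM in Oligo and 8.12, 6.39, 7.63 and 7.08 in Oli_ISR, from 27.2 ± 2.83. Lmnb1, lamin B1, fell to 5.68, 6.63, 6.02 and 6.50 CPM and 6.23, 5.51, 6.39 and 5.92 from 41.3 ± 4.49. Exceptions were Cenpa, the centromeric histone, 2.43-fold lower in Oligo, and Mad2l1, of the spindle checkpoint, 1.76-fold higher. Of 34 genes of DNA replication, 15 were lowered, 8 were alike, 11 were higher in Oli_ISR (6 without mouse 1) and 5 in Oligo (3 without mouse 2). The helicase subunits were split, Mcm7 being alike (12.3, 13.0, 11.2 and 11.1 CPM against 13.2, 10.5, 11.9 and 11, from 65.4 ± 5.87), a call lost whichever mouse was left out, and Mcm2 1.85-fold higher in Oligo. Upstream of these, the G1 cyclins differed. Ccnd3 was 12.8, 12.6, 12.5 and 10.9 CPM in Oligo and 27.6, 26.3, 23.8 and 26.2 in Oli_ISR, from 60.0 ± 1.21 (-1.09 ± 0.07), and Ccnd1 was 2.84-fold lower in Oligo with 48.4% of its exon bases shared. Of 18 genes of the BCL-2 family and cell death, 9 (50%) were higher in Oli_ISR and 4 (22.2%) in Oligo, against 21.3% and 19.9% of all genes. Another count, with some of the same genes, was 8 alike. With library size alone, 5 were higher in Oli_ISR and 7 in Oligo. Among them, Bcl2, which restrains apoptosis, was 2.03-fold higher in Oligo, while Bcl2l11 and Bmf, which promote it, were 1.67-fold and 1.83-fold lower.

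Among raised genes, the largest effects shown to be alike were those of Mthfd2, Atf5, Gpr157, Cars1, Gpnmb, Gdpd1, Cipc and Fam83f. Gpnmb, a glycoprotein of stressed lysosomes, rose from 3708 ± 495 CPM to 10585, 10757, 12122 and 10979 in Oligo and 11581, 11427, 13164 and 11536 in Oli_ISR. Its call of likeness was lost without mouse 1, mouse 2 or mouse 5, and with DESeq2. Gpr157, an orphan receptor, was 71.7, 68.6, 65.9 and 71.7 CPM against 74.7, 67.8, 74.9 and 75.5, from 18.3 ± 1.43. Cipc, a partner of the circadian factor CLOCK, was 116, 116, 116 and 122 CPM against 107, 119, 117 and 128. Among lowered genes they were Lmnb1, Mcm7, Cdk1, Cd24a, Cip2a, Clec4a2, Cdca8 and Mcm4. Clec4a2, a lectin receptor with an inhibitory motif, fell from 320.2 ± 13.4 CPM to 94.1, 97.8, 104 and 94.7 in Oligo and 105, 100.4, 117 and 90.3 in Oli_ISR. Mcm4 was called different (-0.17) and alike at the same time, and the difference was not called without mouse 1 (adjusted p = 0.23) or mouse 2 (0.19). Of 43 named calls of likeness that were checked, 19 were lost without mouse 1, 7 without mouse 2, 8 without mouse 4 and 11 without mouse 5. Those of Cars1, Cipc, Gpr157 and Gdpd1 held whichever single mouse was left out, and those of Cip2a and Mcm7 were lost whichever mouse was left out. Leaving out mice 1 and 4 together ended 30 of the 43, those of Cars1, Cipc and Gdpd1 included. Leaving out mice 2 and 5 together ended 19, that of Gpr157 included. Genes not responding to oligomycin were more often alike. Of 34 proteasome subunits, 28 were alike (17 without mouse 1), none was higher in Oli_ISR, and Psmd8 was 388, 364, 385 and 378 CPM against 362, 342, 334 and 361. Of them, 6 were higher in Oligo (11 without mouse 2, 3 without mouse 4 or mouse 5, 13 with the mouse as a block in the compared groups and 19 with library size alone). Counts of alike genes fell in other lists as well. Without mouse 1 they were 29 mitochondrial ribosomal proteins, 5 cytosolic tRNA synthetases, 5 genes of glycolysis, 3 of DNA replication, 2 of MHC class I and none of the amino acid transporters. Without mouse 5 they were 14 genes of the respiratory chain, 5 cytosolic and 5 mitochondrial tRNA synthetases, 4 of DNA replication and 3 of MHC class I. Without mouse 4 they were 11 genes of the respiratory chain and 4 of DNA replication. Without mice 1 and 4 they were 5 proteasome subunits, 4 mitochondrial ribosomal proteins, 1 gene of the respiratory chain and 0 cytosolic ribosomal proteins. Over all genes, 1226 were alike without mice 1 and 4, against 3081 without mice 2 and 5.

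**Figure D5:**
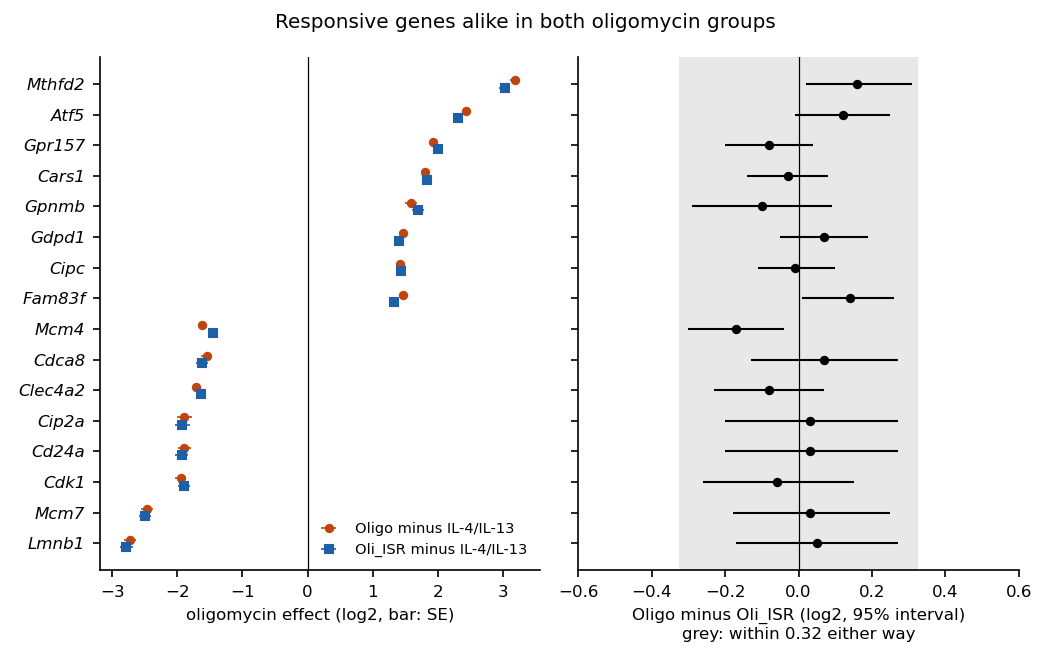
Left, the oligomycin effect (log2, with SE) of the 16 responsive genes named as alike, in Oligo (red-orange) and Oli_ISR (blue), both against the same IL-4/IL-13 controls. Right, Oligo minus Oli_ISR with its 95% interval, and in grey the range of 0.32 in either direction, inside which all 16 intervals lie, from Mcm4 (-0.17) to Mthfd2 (0.16).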

How the data were processed

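Libraries were made from RNA of bone marrow-derived macrophages. The values used were whole-number counts of reads per gene, which the authors deposited without normalization for 24 libraries. The submitters' processing notes name cutadapt 1.8, STAR 2.7, HTSeq 0.9.1, RSEM 1.2.31 and the GRCm39 build, and reads of ribosomal RNA and of low complexity were removed before alignment by the methods of the study. Whether strand was used in counting is not given in the sources used here. A table of TPM values was not used, because its header does not match its columns. The 5 totals rows (reads on no gene and the like) were left out, and reads on no gene made up 12.74% to 15.231% of a library. Counts were fitted with edgeR 4.0.16 (R 4.3.3) by its quasi-likelihood test over all 24 libraries, with TMM normalization, the filterByExpr filter and Benjamini-Hochberg adjustment at 0.05, which kept 13679 of 56884 genes. The fit held no term for the mouse. The difference was Oligo minus Oli_ISR, and the oligomycin effect was the mean of both groups against IL-4/IL-13, taken as responsive at 2.5-fold. Genes were called alike by a pair of one-sided tests against 0.32 on the log2 scale in either direction. CPM values are counts scaled to a normalized library size of 1000000 reads.

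The members and the 58 gene lists were chosen with earlier results of these data known. Named genes were the largest differences in each direction, the leading members of each list and the responsive genes shown to be alike, and exceptions named within a list were chosen after their values were seen. Libraries of the same number came from the same mouse. The deviations of same-numbered libraries from their group means correlated at 0.14 to 0.53, over 0.1 in 4 of 4 pairs. Those of libraries with different numbers correlated at -0.39 to 0.17, over 0.1 in 1 of 12 pairs. The number was taken to pair the libraries. The p-values measure the spread between libraries within groups, pooled over all 24 libraries of these 4 mice. Libraries of the same mouse were treated as independent, and the pairing entered only the fits with the mouse as a block. Promoter windows came from RefSeq (GRCm38.p6) and were searched for motifs on both strands, letters of different motifs being free to overlap. The fit was tested on simulated data. Alternatives were DESeq2 1.42.0, upper-quartile scaling, other filters, only the compared groups, the mouse as a block, a 2-fold effect, a 1.5-fold margin and each mouse left out. Library size alone, the block within the compared groups, and leaving out mice 1 and 4 or mice 2 and 5 were chosen after seeing the data. Depth, from 18514993 to 26725278 reads on genes in the 8 libraries, limits statements on genes of a few CPM. Results on a few genes are not reported here.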

Additional observations from a re-analysis of the deposited data

Results flagged for a closer look

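In 376 groups of 4 values that were examined, 21 had a lowest or highest library that stood apart by Dixon's criterion, and chance gives about 1 in 20 groups. Among the Oligo libraries, mouse 4 stood apart at Ctsd (5187 CPM, the others 4127 to 4281), Cars1 (121), Irf7 (270, the others 354 to 365), Atf4 (699, the others at 706), Ffar2 (70.9) and H2-D1 (5976). Mouse 5 stood apart at Dnaja3 (168), Gclm (340), Cipc (122) and Ccnd3 (10.9), and mouse 1 at Got1 (148). Among the Oli_ISR libraries, mouse 5 had the most reads on genes (26725278). Mouse 1 stood apart at Aldoc (19.7), Eif2s1 (94.1), Ciita (65.3), Got1 (160) and Ldha (1040), mouse 2 at Btg2 (54.6) and Gpr157 (67.8), and mouse 4 at Gpnmb (13164, the others 11427 to 11581) and Uqcrh (69.9).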

How the results depend on the processing

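With the mouse as a replicate block, to use the pairing, 2934 genes were higher in Oligo and 3128 in Oli_ISR, and 4663 were alike. No named call that was checked changed. Of 144 named differences that were checked, none reversed under any alternative run, and leaving out mouse 1, 2, 4 or 5 ended 7, 7, 2 and 6 of them. Leaving out mice 1 and 4 ended 10, leaving out mice 2 and 5 ended 12, and library size alone ended 6. Some genes named only within their list, such as Eif2ak1 and Ccl5, were not among those checked. The counts moved as follows. Without a filter, 1349 genes were lowered and 28 raised genes were alike. With at least 10 counts, differences of 2.5-fold numbered 79 and 109, 485 genes were lowered, and 13 of these were higher in Oligo. With the block within the compared groups, 79 raised genes were higher in Oli_ISR and 47 were alike. With library size alone, 4499 genes were higher in Oligo and 1903 in Oli_ISR, 39 lowered genes were higher in Oligo, 10 raised genes were alike, and the median of all genes shifted by 0.117. Without mice 1 and 4, the calls were 1503 and 1806, 1226 genes were alike, 86 raised genes were higher in Oli_ISR, and 5 raised and 1 lowered gene were alike. Without mice 2 and 5, 13 raised genes were higher in Oli_ISR and 9 raised and 2 lowered genes were alike. With a 2-fold mean effect, 777 genes were raised, 382 of them higher in Oligo and 53 alike, and 576 lowered genes were higher in Oli_ISR and 25 alike. With a 1.5-fold margin, 8672 genes were alike, 105 of them raised and 105 lowered. Leaving out 1 mouse gave 10 to 17 raised and 3 to 8 lowered genes alike, and 20 to 76 raised genes higher in Oli_ISR. Apart from the margins and filters, which set these counts by their construction, the cause was not tested.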
